A study of Homo sapiens with 8 samples.

Results

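Transcripts that the gene annotation marks as substrates of nonsense-mediated decay were followed in leukemia cells after knockdown (KD) of the splicing regulator PTBP1. A transcript was taken when GENCODE version 44 gives it the type nonsense_mediated_decay and when it held at least 40 counts summed over the 8 libraries. Of 254070 transcripts listed in the count table, 21382 carry this annotation, 5596 of those had a count in any library, and 775 reached 40 counts. These 775 decay-annotated transcripts belong to 656 genes, 93 of which contribute at least 2. The sum over all 8 libraries chose them, without regard to group. The type is a label given from structure, and no measurement of RNA decay was made in these libraries.

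The libraries came from MOLM-13, an established human line of acute myeloid leukemia (AML). The cells carried a lentiviral construct with a doxycycline (dox) inducible shRNA, either against PTBP1 (shPTBP1) or scrambled (shSCR), and both groups received dox for 9 days, with 4 biological replicates each. Both constructs express mCherry at all times and express ΔLNGFR, a truncated surface receptor, together with the shRNA after dox. With 1 shRNA against PTBP1 and 1 control shRNA, any other difference between the transduced lines and the loss of PTBP1 itself cannot be told apart. The p values reflect how far the replicates of a group scatter and nothing wider.

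Nonsense-mediated decay degrades mRNAs in which translation stops well upstream of the last exon junction, because the exon junction complexes left downstream of the stop codon mark the molecule for the UPF proteins. Cells use this coupling to tune protein output: a cassette exon that carries a stop codon, or whose inclusion or skipping shifts the reading frame, diverts pre-mRNA into an unproductive isoform. PTBP1 binds pyrimidine-rich RNA, often in the intron ahead of an exon, and represses the use of many cassette exons, including exons of its paralog PTBP2 and of its own transcript. A decay-annotated transcript can therefore rise because more of it is spliced or because less of it is degraded, and steady-state counts cannot tell these apart.

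Extra exons of some called transcripts are shown first, by the intron sequence ahead of them. In each line the 100 bases before the extra exon are given in transcript direction, 5′ to 3′, read from hg38, with every TCTT and CTCTCT in capitals, both being short pyrimidine motifs of the kind PTBP1 binds. The windows are chr5:36178498-36178597 (plus strand) for SKP2-211, chr20:35740598-35740697 (minus) for RBM39-216 and RBM39-206, chr20:31567978-31568077 (plus) for HM13-229, chr5:53604624-53604723 (plus) for NDUFS4-204, chr19:14545014-14545113 (plus) for TECR-216, chr3:197953388-197953487 (plus) for RPL35A-203 and chr16:25125864-25125963 (plus) for LCMT1-201, the last being a transcript that fell. They were picked to show windows with and without the motifs: the first 4 are all those that hold CTCTCT among the 12 extra exons of transcripts that rose in abundance or share, RPL35A-203 holds TCTT only, and TECR-216 and LCMT1-201 hold neither.
SKP2-211: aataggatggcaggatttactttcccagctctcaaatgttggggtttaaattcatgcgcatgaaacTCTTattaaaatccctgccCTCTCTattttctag
RBM39-216: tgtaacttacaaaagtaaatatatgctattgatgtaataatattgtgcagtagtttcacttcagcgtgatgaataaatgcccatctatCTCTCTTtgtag
HM13-229: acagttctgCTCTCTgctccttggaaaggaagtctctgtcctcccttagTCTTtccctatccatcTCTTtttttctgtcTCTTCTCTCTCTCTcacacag
NDUFS4-204: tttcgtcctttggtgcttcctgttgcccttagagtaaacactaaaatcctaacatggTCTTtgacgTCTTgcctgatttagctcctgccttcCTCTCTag
TECR-216: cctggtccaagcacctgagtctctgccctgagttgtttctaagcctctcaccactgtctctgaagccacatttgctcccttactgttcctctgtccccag
RPL35A-203: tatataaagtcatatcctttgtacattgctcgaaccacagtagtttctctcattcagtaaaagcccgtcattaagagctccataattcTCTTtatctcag
LCMT1-201: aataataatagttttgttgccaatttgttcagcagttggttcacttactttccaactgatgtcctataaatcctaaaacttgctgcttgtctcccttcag

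The premature stop codons of 4 genes are shown as the last 30 coding bases of the decay-annotated transcript, spliced and in transcript direction, with the stop codon in capitals. They run over chr5:36177279-36178613 in SKP2-211, chr1:63447586-63453918 in ITGB3BP-212, chr20:35740526-35740555 in RBM39-216 and chr3:186787863-186788319 in EIF4A2-202. Except in RBM39-216, the bases span the junction into the extra exon, and in all 4 the stop codon itself lies within the extra exon.
SKP2-211: cctgaaactttactcatccagaactccTAG
ITGB3BP-212: ggtcagcctcagatgtcacaacctctgTGA
RBM39-216: tttgattccagtgtgaactgtcaatcaTAA
EIF4A2-202: cgtgaaaactatattcacaggagtcgaTAG

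As a check of the knockdown, PTBP1 held 10, 15, 13 and 23 counts in the shPTBP1 libraries and 65, 90, 64 and 78 in the shSCR libraries, which did not overlap (log2 fold change -2.26 ± 0.22 SE, edgeR adjusted p = 7.18e-05). The libraries were of even depth, with 1528449 to 1613342 counts each. Of 12 markers of myeloid leukemia all had a count (SPI1 only 1 in all), with a summed level of 5290 to 5950 CPM (counts scaled to a common library total) after shPTBP1 and 5320 to 5510 after shSCR. Of the other cell types, lymphoid markers reached at most 1.31 CPM with CD3E, CD3D and MS4A1 at 0, erythroid markers at most 0.654 with HBB at 0, epithelial markers at most 8.06 and fibroblast markers at most 13.9.

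The 775 transcripts differed from their genes' main coding isoform, the protein-coding isoform with the most counts, in several ways. In 182 there was an extra exon inside an intron of that isoform and in 192 a skipped exon. A retained intron was found in 9 and more than 1 of these in 25. Splice sites and first or last exons may differ as well in these transcripts, so the class need not be the only difference. A further 336 used other junctions (alternative splice sites or first and last exons), 16 differed at their ends only, and 15 belong to genes with no coding isoform to compare. The stop codon lay 51 to 5468 bases upstream of the last exon junction, with a median of 520. In 132 transcripts it lay within an extra exon. The 226 extra exons were 18 to 4929 bases long (median 106.5), and the length of 146 of them was not a multiple of 3.

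How much of its gene a decay-annotated transcript held varied widely. The median of the mean share of the gene's counts was 17.3%, with 281 transcripts under 10% and 158 at 50% or more. Some are nearly identical to the main coding isoform within the stretch both cover. There, 74 of the 760 with a coding isoform differ from it by 10 exonic bases or fewer. Among these 74 are 22 of the 144 that held at least 50% of their gene. Bases outside that stretch are not counted, here and wherever such differences in bases are given below. Counts in a long-read table rest on assigning each read to 1 annotated structure, and how reads were divided between isoforms that differ by a few bases was not tested. Counts were uneven as well, with a median sum of 98 over the 8 libraries, 392 transcripts under 100 and 56 at 1000 or more. The 10 with the most counts held 44.4% of the 376733 counts of all 775.

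Transcripts near the limit of 40 counts were as follows. At sums of 38 and 39, just outside, stood 14 and 16 transcripts, including LCMT1-204, HNRNPA2B1-218, DDX5-240 and PPP2R3C-202. At 40 and 41, just inside, stood 14 and 10, including AP2B1-219, SAMHD1-203 and KNL1-203. At a sum of 40 the shPTBP1 libraries together held 10 to 26 counts and the shSCR libraries 14 to 30. For 74 of the 775 the sum would have stayed under 40 had both groups stood at the level of the lower one.

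Whether loss of PTBP1 raised decay-annotated transcripts was asked first by their counts. Among 473 transcripts abundant enough to test, 16 rose after PTBP1 KD and 10 fell, led upward by isoforms of SKP2, TECR, RPL35A and ITGB3BP and downward by isoforms of CERS5, LCMT1 and FTH1. The rises ran from 0.31 to 6.61 on the log2 scale and the falls from -0.34 to -1.77. The test was edgeR's quasi-likelihood test over all 10207 transcripts that passed its filter, with calls made where the adjusted p (Benjamini-Hochberg) was below 0.05. Of all those transcripts 2.45% rose and 3.0% fell, against 3.38% and 2.11% of the decay-annotated ones, and in either direction 5.45% against 5.5%. As a whole they were called about as often as transcripts in general. The median log2 fold change was 0.051 for the 473 and 0.001 for all tested. At an unadjusted p under 0.05, 53 were higher and 38 lower.

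The remaining 302 of the 775 were too low for the filter, which asked for 6.34 CPM in at least as many libraries as a group holds. For 8 tested transcripts no library of the other group reached that level, so they passed the filter only through the group in which they were high. These were SKP2-211, TECR-216, RPL35A-203, CERS5-211, CACNA2D4-206, ASAH1-259, TIMM8B-203 and an isoform of FIG4, and the first 5 were called. With every transcript that had a count put into the test, SKP2-211, TECR-216, RPL35A-203 and CERS5-211 were called as well, and CACNA2D4-206 was not (adjusted p = 0.12). In all 26 called transcripts the 8 libraries separated by group without overlap, which 13.1% of all transcripts tested and 14.8% of the decay-annotated ones did.

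**Figure D1:**
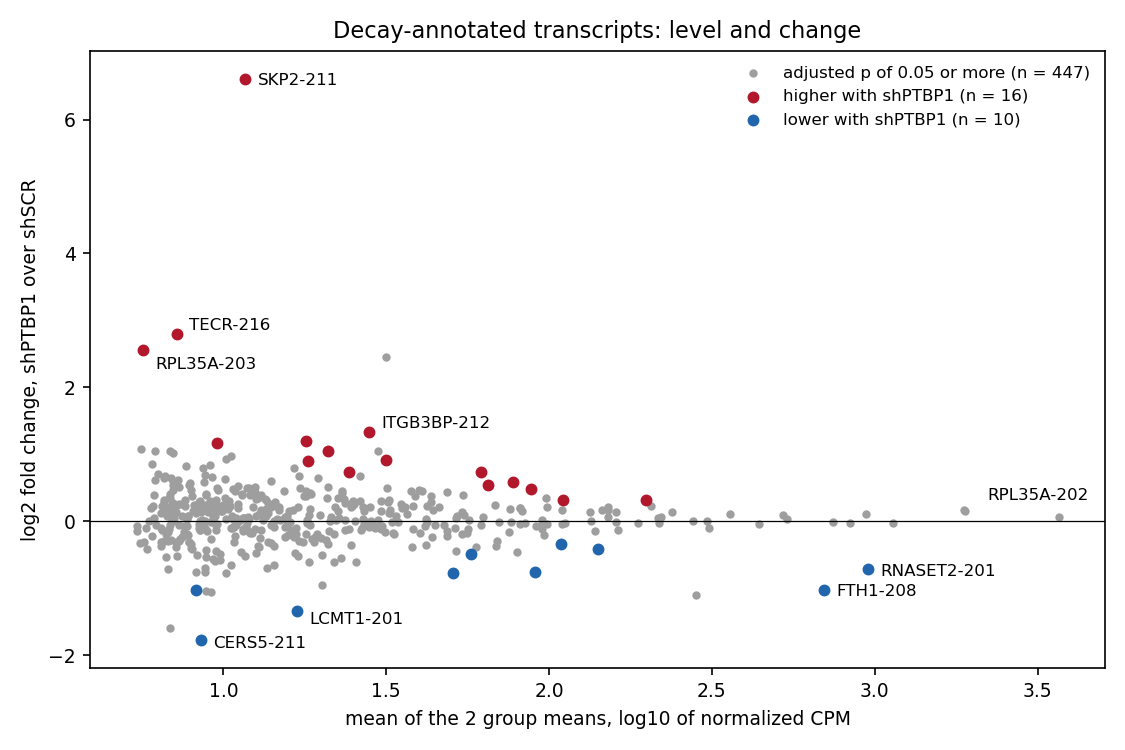
Each point is 1 of the 473 decay-annotated transcripts tested, with the log10 of its mean normalized CPM on the horizontal axis and the log2 fold change of shPTBP1 over shSCR on the vertical axis. The 16 called higher (red) include the most changed ones, SKP2-211 at 6.61 and TECR-216 at 2.80, while RNASET2-201 and FTH1-208 are the abundant ones among the 10 called lower (blue).

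Of the 16 risers 9 had an extra exon, and in 5 of these 9 the gene as a whole was not called. The 3 with the largest log2 fold changes, SKP2-211, TECR-216 and RPL35A-203, are among these 9 and passed the filter only through the shPTBP1 group.

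SKP2-211 was close to absent from control cells and present in every knockdown library. SKP2 is the substrate-recognition subunit of a ubiquitin ligase that targets the cell-cycle inhibitor p27. The transcript held 34, 31, 42 and 38 counts in the shPTBP1 libraries and 0, 1, 0 and 0 in the shSCR libraries. The ratio of the summed counts was 143, with an exact 95% counting interval of 25.3 to 5690, and the fitted log2 fold change was 6.61 ± 0.46 (edgeR adjusted p = 2.03e-06). Its extra exon of 213 bases (chr5:36178598-36178810, plus strand) holds the stop codon. Within the stretch both cover, the transcript differs from the coding isoform SKP2-201 by 2235 exonic bases. Most of these bases lie in the next exon. It starts 3220 bases from the first base of the extra exon in SKP2-211 and 5242 bases from it in SKP2-201. The isoform accounted for 21.5% ± 2.26 (SD, n = 4) of SKP2 counts after KD and 0.216% ± 0.431 in controls (diffSpliceDGE adjusted p = 2.44e-11). SKP2-201 itself held 73, 90, 81 and 92 counts against 68, 75, 80 and 81, groups that overlap (log2 fold change 0.15 ± 0.12, edgeR adjusted p = 0.536), and SKP2 as a gene rose by 0.45 ± 0.09 (adjusted p = 0.0127).

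ITGB3BP-212 exchanged places with the coding isoform while the gene kept its level. ITGB3BP encodes CENP-R, a protein of the inner kinetochore. The transcript held 66, 61, 66 and 58 counts after KD and 23, 26, 24 and 27 in controls, and the coding isoform ITGB3BP-201 held 23, 16, 23 and 27 against 51, 61, 50 and 61. Neither pair of groups overlapped. The log2 fold changes were 1.33 ± 0.14 for ITGB3BP-212 (edgeR adjusted p = 0.000124) and -1.31 ± 0.18 for ITGB3BP-201 (adjusted p = 0.000752), and the gene's was 0.02 ± 0.10 (adjusted p = 0.953). The share of ITGB3BP-212 rose from 26.7% ± 1.29 to 67.4% ± 5.33, a change of 40.7 percentage points (diffSpliceDGE adjusted p = 6.36e-06). Within the stretch both cover, the only difference between these isoforms is an exon of 50 bases (chr1:63447565-63447614, minus strand), which holds the stop codon, 72 bases before the last junction. The transcript overlaps EFCAB7 on the opposite strand by 131 exonic bases.

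TECR-216 rose from a trace. TECR encodes the reductase that completes each cycle of very-long-chain fatty acid elongation. The transcript held 17, 22, 23 and 17 counts after KD and 1, 2, 3 and 5 in controls, a ratio of summed counts of 7.09 (exact 95% counting interval 3.75 to 14.8) and a log2 fold change of 2.80 ± 0.39 (edgeR adjusted p = 0.000933). An exon of 67 bases (chr19:14545114-14545180, plus strand) is the only difference from TECR-201 within the stretch both cover, and the stop codon comes in a later exon. Its share of the gene was 2.87% ± 0.543 against 0.391% ± 0.244 (diffSpliceDGE adjusted p = 6.69e-07), and TECR as a gene stood at -0.02 ± 0.06 (adjusted p = 0.911). The transcript overlaps DNAJB1 on the opposite strand by 117 exonic bases.

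RPL35A-203, from a gene for a protein of the large ribosomal subunit, was a rare isoform of a very abundant gene. It held 13, 13, 19 and 16 counts after KD and 3, 2, 5 and 0 in controls, with a log2 fold change of 2.56 ± 0.50 (edgeR adjusted p = 0.00857). Its extra exon has 173 bases (chr3:197953488-197953660, plus strand) and contains the stop codon. The share of RPL35A counts was 0.174% ± 0.0289 against 0.0308% ± 0.0261 (diffSpliceDGE adjusted p = 7.02e-05). Ribosomal protein genes have many pseudogene copies, and the division of reads among copies was not tested.

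**Figure D2:**
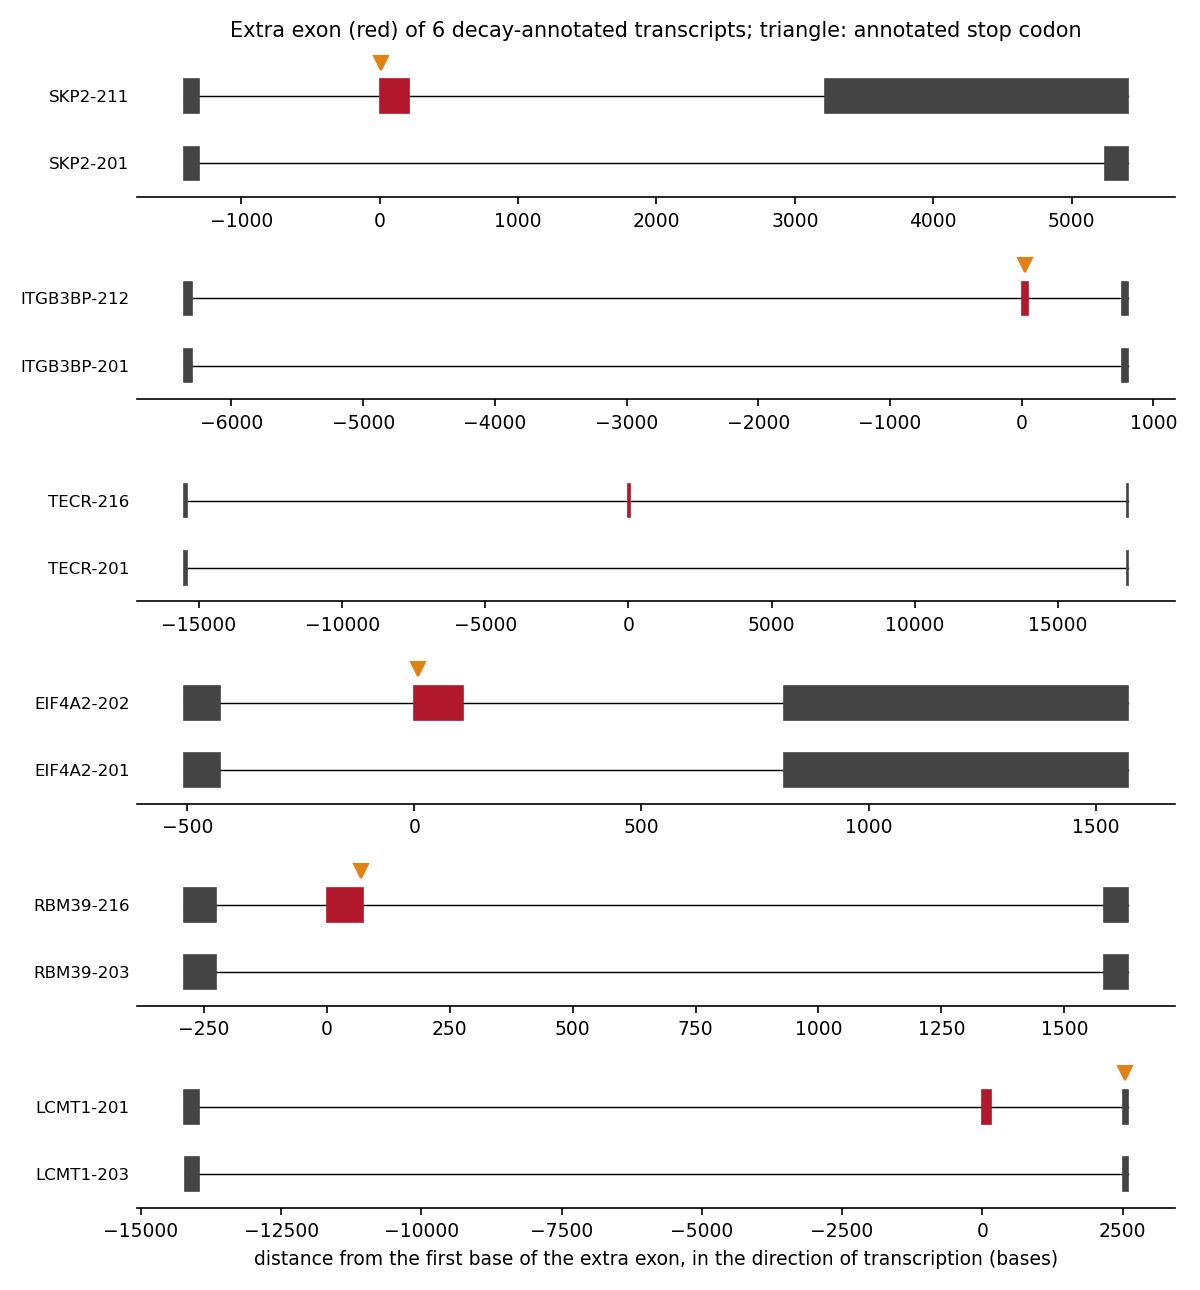
Exons of 6 decay-annotated transcripts (upper line of each panel) and of the main coding isoform (lower line) around the extra exon, drawn to scale against the distance in bases from its first base, in the direction of transcription. Red marks the extra exon, from 50 bases in ITGB3BP-212 to 213 in SKP2-211, and the triangle marks the stop codon, which in TECR-216 lies beyond the region drawn and in LCMT1-201 in the exon after the extra one.

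NDUFS4-204 rose while its gene, at -0.26 ± 0.07, was not called (edgeR adjusted p = 0.0619). NDUFS4 is a subunit of respiratory complex I. The transcript held 40, 45, 53 and 53 counts after KD and 28, 28, 29 and 30 in controls (log2 fold change 0.74 ± 0.16, edgeR adjusted p = 0.0152), and its share went from 6.83% ± 0.392 to 13.7% ± 1.19 (diffSpliceDGE adjusted p = 0.000862). The groups did not overlap in either measure. The extra exon of NDUFS4-204 has 172 bases (chr5:53604724-53604895, plus strand), and the stop codon comes in a later exon. The coding isoform NDUFS4-201 held 277, 279, 317 and 289 counts against 405, 359, 392 and 375 (log2 fold change -0.39 ± 0.08, adjusted p = 0.00874). The abundance call of NDUFS4-204 was lost without shPTBP1 replicate 3 or 4 (adjusted p = 0.0527 and 0.0579) and with DESeq2 (0.0773), while the share call was kept in each of these.

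RBM39-216 and RBM39-206 share 1 extra exon of 73 bases (chr20:35740525-35740597, minus strand) with a stop codon near its end. RBM39 is a splicing factor related to U2AF. RBM39-216 held 173, 162, 139 and 168 counts after KD and 117, 118, 112 and 115 in controls (log2 fold change 0.48 ± 0.09, edgeR adjusted p = 0.00492). RBM39-206 held 209, 184, 177 and 200 against 162, 164, 144 and 154 (0.31 ± 0.08, adjusted p = 0.0294). Both rose with their gene, which changed by 0.31 ± 0.06 (adjusted p = 0.00776), and neither share was called. Together they carried more than 50% of RBM39 counts, with mean shares of 32.6% and 27.2% after KD and 32.5% and 24.1% in controls. The call of RBM39-206 was lost without any 1 of shPTBP1 replicates 1, 2 and 4 and shSCR replicates 1, 3 and 4 (adjusted p = 0.0637 to 0.0935), with DESeq2 (0.164) and with every transcript that had a count tested (0.125).

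UNK-202, from the gene of the RNA-binding zinc finger protein Unkempt, held 63, 69, 55 and 72 counts after KD and 41, 36, 23 and 38 in controls (log2 fold change 0.92 ± 0.17, edgeR adjusted p = 0.00568), and UNK as a gene rose by 0.50 ± 0.12 (adjusted p = 0.0296). PPIH-214, from the gene of a cyclophilin of the U4/U6.U5 particle, held 19, 21, 16 and 27 against 10, 13, 5 and 9 (1.17 ± 0.29, adjusted p = 0.0298), with PPIH as a gene at 0.04 ± 0.06 (adjusted p = 0.775). The groups did not overlap in either. The share of UNK-202 rose by 16.3 points and was not called (diffSpliceDGE adjusted p = 0.674). UNK-202 has extra exons of 260 and 166 bases and overlaps H3-3B on the opposite strand by 130. PPIH-214 has an extra exon of 105 bases (chr1:42668047-42668151, plus strand), and its stop codon lies upstream of that exon. The PPIH-214 call was lost without any 1 of shPTBP1 replicates 2 and 4 and shSCR replicates 1, 3 and 4 (adjusted p = 0.0624 to 0.109) and with DESeq2 (0.104).

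A share of the gene rose without a called change in transcript abundance in 3 further genes. HM13 encodes signal peptide peptidase, and HM13-229 went from 12, 16, 11 and 6 counts in controls to 23, 20, 17 and 28 after KD. Its share rose from 3.75% ± 1.24 to 9.14% ± 1.73 (diffSpliceDGE adjusted p = 0.00187), with the stop codon in an exon of 203 bases (chr20:31568078-31568280, plus strand), while HM13 as a gene fell by 0.29 on the log2 scale (edgeR adjusted p = 0.0307). Without shSCR replicate 4 the share call was lost (adjusted p = 0.055), as it was with every transcript that had a count tested (0.0543). HSD17B4-229, from a gene of peroxisomal fatty acid oxidation, rose from 6.03% ± 2.21 to 13.1% ± 2.80 of its gene (adjusted p = 0.0473), a call kept without shSCR replicate 2 and lost without any other single library (adjusted p = 0.0586 to 0.427), with a mean of at least 10 counts required (0.105) and with every transcript that had a count tested (0.463). The third gene, EIF4A2, is described with its partner isoform.

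EIF4A2 yielded decay-annotated transcripts that differed in direction. EIF4A2 is an RNA helicase of translation initiation and mRNA repression. EIF4A2-202, with an extra exon of 107 bases (chr3:186788310-186788416, plus strand) that holds the stop codon, had 100, 86, 97 and 103 counts after KD and 82, 80, 64 and 72 in controls (log2 fold change 0.38 ± 0.11, edgeR adjusted p = 0.0532). EIF4A2-203, which skips an exon of 140 bases (chr3:186784962-186785101), had 70, 60, 57 and 49 against 105, 112, 85 and 103 (-0.77 ± 0.13, adjusted p = 0.00306). The share of EIF4A2-202 rose from 18.2% ± 1.16 to 28.6% ± 3.49 (diffSpliceDGE adjusted p = 0.00693), and that of EIF4A2-203 was 24.8% ± 1.94 in controls and 17.3% ± 1.27 after KD (adjusted p = 0.0928). All 4 sets of values were apart between groups. The share call of EIF4A2-202 was lost without shPTBP1 replicate 4 or shSCR replicate 3 (adjusted p = 0.0547 to 0.12), and with every transcript that had a count tested (0.0811).

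**Figure D3:**
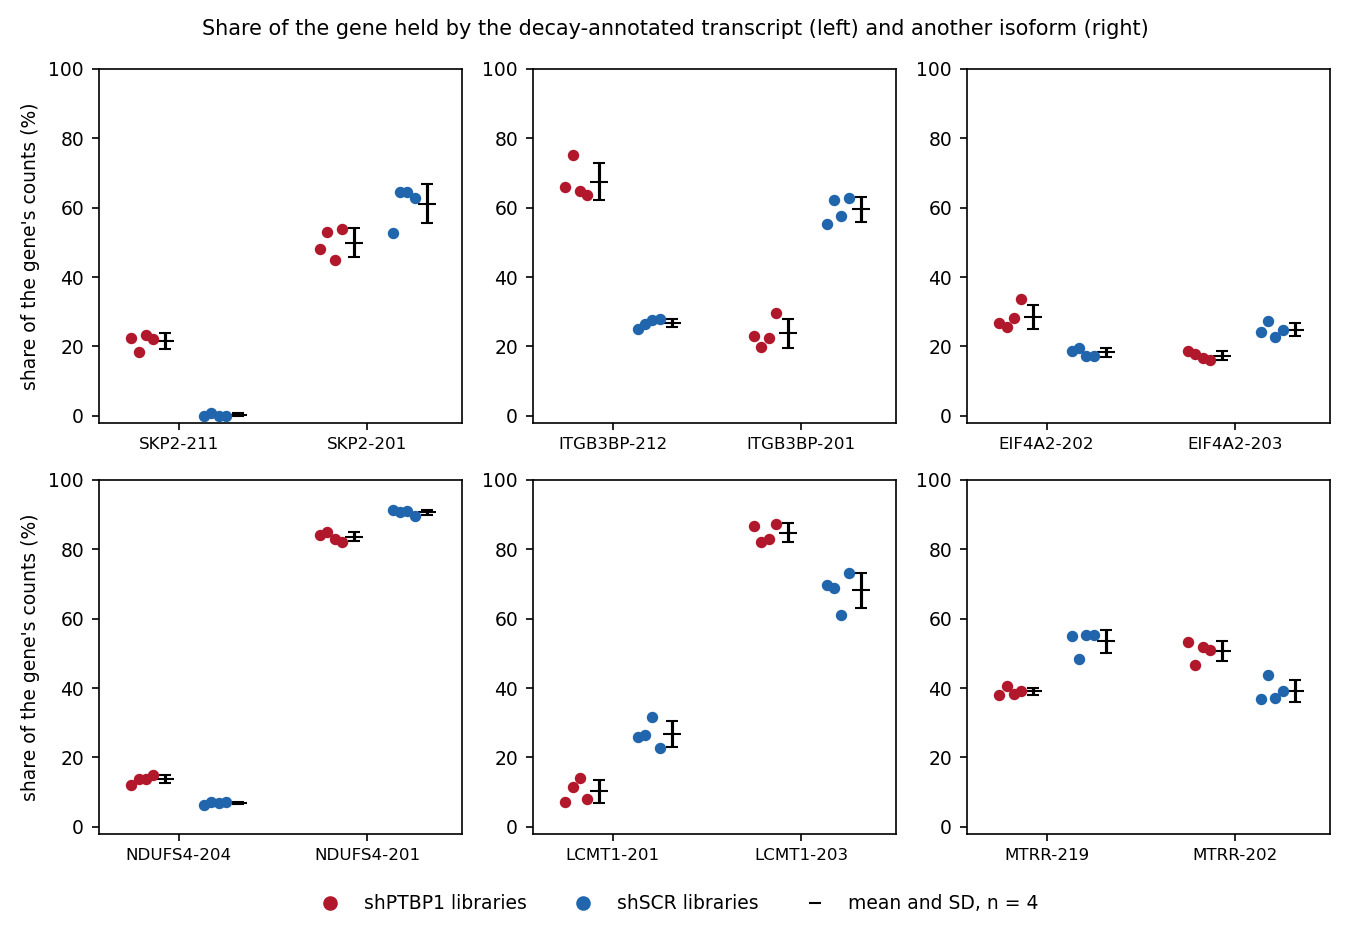
Share of the gene's counts (percent) in each library for 6 decay-annotated transcripts (left pair of columns) and for another isoform of the same gene (right pair), with red points for shPTBP1, blue points for shSCR, and black bars for the mean and SD of 4 libraries. The crossing of ITGB3BP-212 (26.7% to 67.4%) and ITGB3BP-201 (59.5% to 23.7%) is the widest, and LCMT1-201 and MTRR-219 are the ones that lost share.

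LCMT1-201 was the clearest transcript with an extra exon that fell. LCMT1 methylates the catalytic subunit of protein phosphatase 2A. The transcript held 11, 18, 20 and 10 counts after KD and 35, 40, 44 and 33 in controls (log2 fold change -1.35 ± 0.24, edgeR adjusted p = 0.0048), without overlap. Its share fell from 26.7% ± 3.68 to 10.2% ± 3.24 (diffSpliceDGE adjusted p = 0.000212) while LCMT1 as a gene stood at 0.03 ± 0.10 (adjusted p = 0.906). The extra exon has 163 bases (chr16:25125964-25126126, plus strand), and the stop codon follows in the next exon. The coding isoform LCMT1-203 held 132, 128, 117 and 110 counts against 94, 104, 85 and 106 (0.34 ± 0.10, adjusted p = 0.0796).

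CERS5-211, from the gene of a ceramide synthase, fell with its gene. It held 4, 7, 6 and 7 counts after KD and 30, 15, 14 and 25 in controls (log2 fold change -1.77 ± 0.33, edgeR adjusted p = 0.00695), and CERS5 changed by -1.29 ± 0.17 (adjusted p = 0.000773). The shares of the gene overlapped, at 28.4% ± 5.04 and 39.8% ± 11.7.

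Calls were counted by structure. Of 93 transcripts with an extra exon tested, 9 rose (9.68%) and 2 fell (2.15%), with a median log2 fold change of 0.20. Of 113 with a skipped exon 4 rose (3.54%) and 3 fell (2.65%), with a median of 0.08, and of 228 with other junctions 3 rose (1.32%) and 5 fell (2.19%), with a median of 0.04. The background over all transcripts tested was 2.45% higher and 3.0% lower. Members of 1 gene can share an exon, as the RBM39 transcripts do, and the filter on low counts favours a transcript that is high in 1 group, so these shares describe the transcripts tested and the difference between structures was not tested. Without the transcripts that passed the filter through 1 group only, a count chosen after seeing the data, 6 of 88 with an extra exon rose (6.82%), with a median of 0.16, as did 4 of 111 with a skipped exon (3.6%) and 3 of 227 with other junctions (1.32%).

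Without the called transcripts, 52 of the 82 other extra-exon transcripts (63.4%) lay above 0, with a median of 0.12, compared with 205 of the 365 uncalled transcripts without an extra exon (56.2%, median 0.04). The median over their genes was 0.03 and 0.04 in these sets. The 82 include TIMM8B-203 (log2 fold change 1.05), which passed the filter only through the group in which it was high. The difference between the sets was not tested. By share of the gene, 8 of 82 extra-exon transcripts tested gained and 1 lost at any size of change, the skipped-exon transcripts had 0 gains and 1 loss among 101, and those with other junctions had 2 gains and 0 losses among 198. Over all transcripts tested, 1.1% gained and 0.714% lost. The 8 gains include SKP2-211, TECR-216 and RPL35A-203, which passed the filter only through the shPTBP1 group. Gains and losses of share were not counted again without them, and their difference between structures was not tested.

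**Figure D4:**
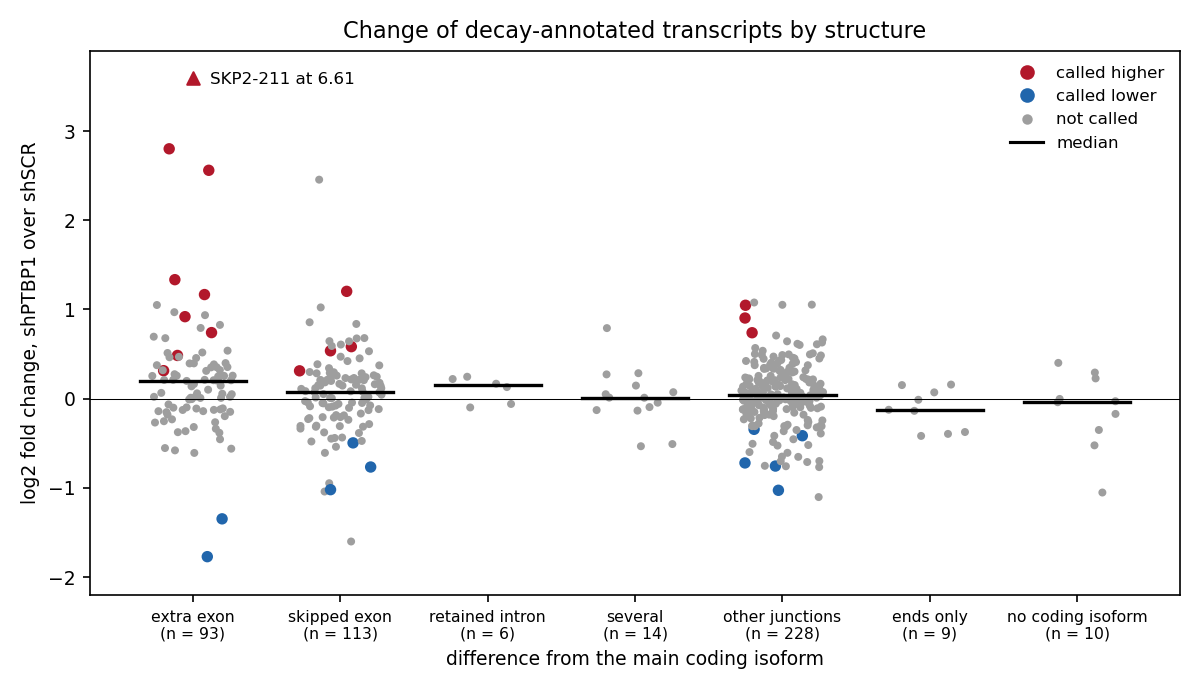
Log2 fold change of shPTBP1 over shSCR for the 473 tested transcripts, grouped on the horizontal axis by how each differs from the main coding isoform of its gene, with black lines at the medians and points spread sideways only for legibility. Of the 16 red points (called higher) 9 are in the extra-exon column, which has the highest median among the classes (0.20). SKP2-211, at 6.61, is drawn as a triangle at the top of the axis.

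The intron ahead of the extra exons was compared for the motifs shown above, in windows of 100 bases on the transcript strand. TCTT was present in 66.6% of 5872 windows ahead of internal exons of the main coding isoforms and in 60.6% of the 226 windows ahead of extra exons. CTCTCT was present in 6.7% and 8.0%, respectively. Among the 12 extra exons of transcripts that rose in abundance or share, 9 windows held TCTT (75.0%) and 4 held CTCTCT (33.3%), these 4 being the windows of SKP2-211, RBM39-206 with RBM39-216, HM13-229 and NDUFS4-204. Of the 2 windows of transcripts that fell, 0 held either. At least 2 TCTT stood in 16.7% of the 12 windows and in 30.6% of the coding-exon windows. On the opposite strand TCTT stood in 33.3% of the 12 and 31.2% of the coding-exon windows. The motifs may overlap each other, and the median pyrimidine content was 58.0% for the 12 against 55.0% for the coding exons. Of these 12 exons, 10 have a length that is not a multiple of 3, as have 146 of the 226 extra exons. The 12 include 2 exons of UNK-202. They also include those of SKP2-211, TECR-216 and RPL35A-203, which passed the filter only through the shPTBP1 group. The differences between these sets of windows were not tested.

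Of the risers, 4 lack 1 or 2 exons of the coding isoform. STRAP-206, from the gene of a protein that binds TGF-β receptors and the SMN complex, held 32, 46, 40 and 38 counts after KD and 13, 14, 19 and 22 in controls (log2 fold change 1.20 ± 0.22, edgeR adjusted p = 0.00523), with no overlap. It skips an exon of 136 bases (chr12:15883541-15883676, plus strand) and made up 3.52% ± 0.565 of STRAP after KD, against 1.71% ± 0.435 in controls. CCDC25-206 (0.58 ± 0.15, adjusted p = 0.0329), PPP2R3C-204, from the gene of a regulatory subunit of protein phosphatase 2A (0.54 ± 0.12, adjusted p = 0.0166), and PTDSS1-201, from that of a phosphatidylserine synthase (0.31 ± 0.07, adjusted p = 0.0167), were the others. PTDSS1-201 made up 81.6% ± 1.45 of its gene and moved with it (0.31 ± 0.07 for the gene, adjusted p = 0.016). The CCDC25-206 call was lost without shPTBP1 replicate 2, 3 or 4 or shSCR replicate 2 or 4 (adjusted p = 0.0551 to 0.111), that of PPP2R3C-204 without shPTBP1 replicate 3 or shSCR replicate 1 or 4 (0.0533 to 0.0587), and that of PTDSS1-201 without shPTBP1 replicate 3 or 4 (0.059 to 0.0648).

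The other risers use other junctions. RPL30-206, a minor isoform of a large-subunit ribosomal protein gene, held 41, 41, 53 and 42 counts after KD and 21, 17, 29 and 19 in controls (log2 fold change 1.05 ± 0.20, edgeR adjusted p = 0.00837). PSME2-203, from the gene of a proteasome activator subunit, held 120, 118, 114 and 132 against 81, 58, 71 and 82 (0.74 ± 0.12, adjusted p = 0.0022). SDAD1-202 held 42, 37, 40 and 30 against 17, 28, 17 and 18 (0.90 ± 0.21, adjusted p = 0.0208). The groups were apart in each. RPL30-206 made up 0.286% ± 0.0379 of its gene after KD and 0.151% ± 0.0366 in controls (diffSpliceDGE adjusted p = 0.00963), and PSME2-203 made up 12.7% ± 0.886 and 8.78% ± 1.29 (adjusted p = 0.0345). RPL30-206 overlaps RPL30-AS1 on the opposite strand by 256 exonic bases, and PSME2-203 overlaps RNF31 by 168. Opposite-strand overlaps are also present for PPP2R3C-204 (PRORP 296 bases, FAM177A1 97, an unnamed gene 60), PDIA3-214 (CATSPER2P1 176) and CHD1L-210 (LINC00624 82). Unnamed annotated genes overlap PPIH-214 by 134, EIF4A2-202 by 63 and EIF4A2-203 by 68. Whether the counting used strand is not stated in the sources used here, so reads of such pairs cannot be told apart.
The SDAD1-202 call was lost without any 1 of shPTBP1 replicates 1 to 3 and shSCR replicates 1, 3 and 4 (adjusted p = 0.052 to 0.0713) and with DESeq2 (0.0655). The share call of RPL30-206 was lost without shPTBP1 replicate 3 or shSCR replicate 2 or 4 (0.0526 to 0.112) and with every transcript that had a count tested (0.0808). That of PSME2-203 was lost without shPTBP1 replicate 1, 2 or 4 or shSCR replicate 2 or 3 (0.095 to 0.215), with a mean of at least 10 counts required (0.0623) and with every transcript that had a count tested (0.313).

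Several transcripts that fell were the dominant form of a gene that fell as a whole. RNASET2-201, from the gene of a lysosomal ribonuclease, held 1143, 1128, 1097 and 1160 counts after KD and 1774, 2061, 1679 and 2003 in controls (log2 fold change -0.72 ± 0.07, edgeR adjusted p = 3.92e-05). It made up 92.6% ± 0.81 of RNASET2 after KD and 94.1% ± 0.787 in controls, and differs from the main coding isoform by 4 exonic bases. It shares 434 exonic bases with another annotated gene on the same strand. FTH1-208, from the gene of the ferritin heavy chain, held 498, 554, 753 and 1081 against 1147, 1704, 1202 and 1868 (-1.03 ± 0.22, adjusted p = 0.0137), with 93.9% ± 0.611 and 94.1% ± 0.942 of its gene and a difference of 7 bases from the coding isoform. The groups did not overlap, although shPTBP1 replicate 4 came close to shSCR replicate 1, and the call was lost without shPTBP1 replicate 2 or shSCR replicate 4 (adjusted p = 0.0508 to 0.0608). PDIA3-214, from the gene of a protein disulfide isomerase (-0.42 ± 0.09, adjusted p = 0.0177), and ADAM9-220, from that of a membrane metalloprotease (-0.76 ± 0.12, adjusted p = 0.00198), likewise held 63.9% and 86.5% of their genes' counts after KD. The genes fell by 0.69 (RNASET2), 1.02 (FTH1), 0.37 (PDIA3) and 0.77 (ADAM9) on the log2 scale, each with an adjusted p under the threshold. FTH1-208 overlaps BEST1 on the opposite strand by 592 exonic bases and has pseudogene copies elsewhere, and PDIA3-214 lost its call without shPTBP1 replicate 2 or 3 or shSCR replicate 2 (adjusted p = 0.05 to 0.0594).

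CACNA2D4-206 and CHD1L-210 also fell. CACNA2D4-206, from the gene of a calcium channel auxiliary subunit, held 7, 10, 8 and 9 counts after KD and 17, 19, 16 and 18 in controls, without overlap (log2 fold change -1.02 ± 0.25, edgeR adjusted p = 0.0281). CHD1L-210, from that of a chromatin remodeller, changed by -0.34 ± 0.09 (adjusted p = 0.0418) and shares 2686 exonic bases with another annotated gene on the same strand. CACNA2D4-206 lost its call without any 1 library but shPTBP1 replicate 2 (adjusted p = 0.0534 to 0.0729) and with DESeq2 (0.24). CHD1L-210 lost its call without any 1 library but shSCR replicates 1 and 4 (0.0786 to 0.12), with DESeq2 (0.138), with limma-voom (0.0637) and with every transcript that had a count tested (0.0682).

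Asked by share of the gene's counts, few decay-annotated transcripts switched by a large amount. A transcript was called when edgeR's diffSpliceDGE gave an adjusted p under 0.05 and its mean share moved by at least 10 percentage points. Of 405 tested, SKP2-211 (21.3 points), ITGB3BP-212 (40.7) and EIF4A2-202 (10.3) gained, and LCMT1-201 (-16.5) and MTRR-219 (-14.4) lost. Over all 5464 transcripts tested 0.604% gained and 0.512% lost by this rule. With no minimum change 10 gained and 2 lost, against 1.1% and 0.714% of all tested. The 5 calls of at least 10 points became 3 without shPTBP1 replicate 4 or without shSCR replicate 3.

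MTRR-219, from the gene of methionine synthase reductase, skips an exon of 154 bases (chr5:7873373-7873526, plus strand) and held 130, 142, 141 and 147 counts after KD and 151, 153, 178 and 171 in controls (log2 fold change -0.21 ± 0.09, edgeR adjusted p = 0.237). Its share was 38.1%, 40.5%, 38.4% and 39.2% after KD and 55.1%, 48.4%, 55.3% and 55.2% in controls, without overlap (diffSpliceDGE adjusted p = 0.0239). The coding isoform MTRR-202 held 182, 164, 190 and 191 counts against 101, 138, 120 and 121 (0.61 ± 0.10, edgeR adjusted p = 0.00364), and its share was 50.7% ± 2.84 after KD and 39.2% ± 3.12 in controls (diffSpliceDGE adjusted p = 0.188). The share call held without shSCR replicate 2 and was lost without any other single library (adjusted p = 0.0649 to 0.139), and with every transcript that had a count tested (0.465).

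The called transcripts were next set beside the sums of all counts of their genes. Of the 16 that rose, 6 had a gene that rose by the same test on gene sums and 10 a gene that was not called. Of the 10 that fell, 6 had a gene that fell and 4 did not. A mean share under 10% was found for 5 risers and 0 of those that fell, while 2 risers and 4 of those that fell held at least 50%. Of 641 host genes tested 25 rose and 28 fell, compared with 2.36% higher and 3.19% lower of all 7597 genes. The 53 calls became 18, 20 and 28 without shPTBP1 replicate 2, 3 or 4 and 31, 26 and 25 without shSCR replicate 1, 2 or 4.

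The decay-annotated share of the library, summed over all 775 transcripts, was not higher after KD. The 775 transcripts took 2.92%, 2.94%, 2.95% and 3.03% of all counts in the shPTBP1 libraries and 3.01%, 3.04%, 3.00% and 3.03% in the shSCR libraries. The means were 2.96% ± 0.0491 and 3.02% ± 0.0179 (SD, n = 4), with overlapping groups and a difference of -0.0581 points. RNASET2-201 and FTH1-208, each close to a coding isoform, held 4528 and 2886 counts over the shPTBP1 libraries and 7517 and 5921 over the shSCR libraries. Both were called lower, and the difference over all 775 includes their fall. It therefore does not give the direction of the remaining transcripts. By type, 5.5% of tested decay-annotated transcripts were called, as were 5.5% of protein-coding transcripts, 2.99% of retained-intron transcripts and 8.11% of lncRNA transcripts. The median log2 fold changes of these types were 0.051, -0.015, 0.115 and 0.165. In such bulk libraries fewer cells of a type and less RNA per cell cannot be told apart.

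Genes of the PTBP family, whose decay-coupled exons are well known, contributed no transcript. PTBP1 has 4 decay-annotated transcripts in the table, with 9 counts in all (2 after KD and 7 in controls), and PTBP2 has 4, with 2 counts in all (1 in each group). PTBP2 as a gene rose from 1, 2, 2 and 4 counts in controls to 194, 199, 190 and 185 (log2 fold change 6.36 ± 0.19, edgeR adjusted p = 2.13e-10). Whether such isoforms were made and degraded was not tested. PTBP3 had none listed, with a gene change of 0.38 ± 0.13 (adjusted p = 0.118).

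SR proteins, TRA2 proteins and hnRNPs regulate themselves through decay-coupled exons, and 4 transcripts of SR and TRA2 genes and 9 of hnRNP genes were among the 775. Of these 3 and 7 were tested and 0 called by edgeR, DESeq2 or limma-voom, with 2 and 1 at an unadjusted p under 0.05 by edgeR. TRA2B-205, the isoform with the extra exon by which this splicing activator limits itself, held 72, 83, 65 and 69 counts after KD and 44, 48, 60 and 58 in controls. Its groups did not overlap (log2 fold change 0.47 ± 0.15, edgeR adjusted p = 0.0869), and it made up 49.5% of the gene after KD and 51.8% in controls, while TRA2B rose by 0.56 ± 0.13 (adjusted p = 0.0241). SRSF2-208 held 14, 6, 10 and 12 counts against 16, 19, 11 and 23 (-0.70 ± 0.30, adjusted p = 0.224) in a gene that fell by 1.42 on the log2 scale (adjusted p = 0.0127) and overlaps MFSD11 on the opposite strand. Others were SRSF7-208 (0.13), HNRNPA1-205 (-0.03), HNRNPA2B1-203 (0.05), HNRNPA2B1-242 (0.14), HNRNPDL-202 (0.06), HNRNPUL1-208 (0.48) and SYNCRIP-211 (0.11), with adjusted p of 0.408 to 0.912, and TRA2A-211, HNRNPA3-218 and HNRNPH1-217, which were too low to test. Of the genes themselves, 13 of 14 SR and TRA2 genes were tested, with TRA2B higher and SRSF2 lower, and 24 of 26 hnRNP genes were tested, with an adjusted p of 0.0682 or more in each.

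A list of genes linked to nonsense-mediated decay, not all of them parts of its machinery, was set beside these. Of its 35 genes 31 were tested, 2 rose and 0 fell, with a median log2 fold change of 0.00, where 2.36% of all genes tested rose and 3.19% fell. Those that rose were PABPC1, the poly(A)-binding protein (0.23 ± 0.06, edgeR adjusted p = 0.0475), and PNRC2, a decapping adaptor (0.21 ± 0.06, adjusted p = 0.0479). SMG1, the kinase of UPF1, was at -0.15 ± 0.27 (adjusted p = 0.823), UPF2 at -0.21 ± 0.16 (0.511), SMG5 at 0.00 ± 0.10 (0.991) and SMG6 at -0.02 ± 0.33 (0.988). UPF1 itself is not among the 31 genes tested. The decay-annotated transcripts of the listed genes numbered 5, of which 4 were tested and 0 called by edgeR, DESeq2 or limma-voom, with 0 at an unadjusted p under 0.05.

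Other groups of genes gave few calls among their decay-annotated transcripts. Among spliceosome genes 9 transcripts were tested and 2 rose, both of RBM39. Among translation factors 6 were tested, with EIF4A2-203 lower and EIF4A2-202 called by share. Of 26 ribosomal protein transcripts 19 were tested and 2 rose, RPL35A-203 and RPL30-206, with a median log2 fold change of 0.14 for the 19. The 2 of RBM39 share 1 extra exon, and RPL35A-203 passed the filter only through the shPTBP1 group. Over all transcripts tested, 2.45% rose and 3.0% fell by abundance. By share with a change of at least 10 points, 0.604% gained and 0.512% lost. As whole genes, 6 of 80 ribosomal protein genes tested rose and 0 fell, with a median of 0.12, and 6 of 40 translation factor genes rose and 0 fell, with a median of 0.01. Over all genes tested, 2.36% rose and 3.19% fell.

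By raw count, which is not corrected for length, the 10 largest transcripts came from RPL35A, CALM2, EIF3E, CD63, RNASET2, RPL18, ACTG1, SARAF, FTH1 and RACK1, and apart from RNASET2-201 and FTH1-208 none was called. RPL35A-202 held 5249, 6155, 6034 and 6077 counts after KD and 5830, 5422, 5491 and 5927 in controls, which overlap, and made up 67.1% ± 0.928 and 68.7% ± 0.609 of its gene (log2 fold change 0.07 ± 0.06, edgeR adjusted p = 0.632). CALM2-209 held 3122, 3035, 3186 and 3169 counts against 2888, 2727, 2891 and 2788. EIF3E-225 held 3049, 3080, 3258 and 3081 against 2890, 2854, 2713 and 2684. Neither of these overlapped between groups, with changes of 0.16 ± 0.05 (adjusted p = 0.09) and 0.17 ± 0.05 (adjusted p = 0.0652). They made up over 90% of their genes, and CALM2-209 differs from the main coding isoform at its ends only and EIF3E-225 by 2 exonic bases. The others lay between -0.03 for CD63-209 and ACTG1-224 and 0.11 for RPL18-206, with adjusted p of 0.499 to 0.97. SARAF-203 (4 bases), RACK1-210 (4) and RPL18-206 (8) are also close to a coding isoform.

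Some decay-annotated transcripts were at 0 in 1 or more libraries and well counted in their replicates. Transcripts near 0 throughout a group, such as SKP2-211, were left aside here. There were then 19 with a count of 0 in a library and at least 20 in another, of which 13 were tested. By edgeR 0 were called and 1 had an unadjusted p under 0.05, by DESeq2 0 were called and by limma-voom 1, HEATR3-215. QKI-204, from the gene of an RNA-binding regulator of splicing, held 0, 565, 0 and 558 counts in the shPTBP1 libraries and 681, 689, 565 and 506 in the shSCR libraries (log2 fold change -1.10 ± 0.80, edgeR adjusted p = 0.495). The coding isoforms QKI-203 and QKI-207 held 13 and 12 counts in shPTBP1 replicate 1 and 16 and 8 in replicate 3, so the gene's total fell to 26 and 24 there. HEATR3-215 held 82, 82, 96 and 74 counts after KD and 0, 0, 0 and 61 in controls. Its groups did not overlap, but the spread within shSCR left it uncalled by edgeR (2.45 ± 0.75, adjusted p = 0.0788). PRR11-203 was at 0 in shSCR replicates 2 and 3, and GATAD2A-205 in 3 shPTBP1 and 2 shSCR libraries. The values move with single libraries in both groups, and how the counting set them to 0 was not tested.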

How the data were processed

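Total RNA from 4 shPTBP1 and 4 shSCR cultures of MOLM-13 cells was converted to full-length cDNA, barcoded and sequenced on a PromethION. Reads were aligned to hg38 with minimap2 and transcripts were counted with StringTie. The deposited transcript counts are whole numbers, not normalized, with 1528449 to 1613342 per library. A further deposited table, labelled as TPM, holds the same counts divided by the library total without regard to length, and was not used. The versions of these tools and of the annotation are not given in the sources used here.

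Transcript types, genes, exons and stop codons were taken from GENCODE version 44, in which 1508 of 254070 transcripts had no match (0.0876% to 0.1151% of a library's counts). The 775 transcripts, the gene lists and the tests were chosen with earlier results of these data known, so the counts over them are descriptions. The rule for named transcripts took those called by abundance or share without overlap of the groups (the 10 largest log2 fold changes in each direction and the 10 largest changes of share), the 10 with the most counts, those of the PTBP, SR, TRA2 and hnRNP genes, those next to the limit of 40 counts, and for each share call the isoform that moved most the other way. RBM39-216, RBM39-206, CCDC25-206, PPP2R3C-204, PTDSS1-201, the uncalled transcripts that passed the filter through 1 group, the transcripts at 0 in a library, the genes linked to nonsense-mediated decay and the other coding isoforms were chosen after their values were seen. Values of a few items, some of them called or listed, enter the counts but are not reported here.

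Abundance was tested with edgeR's quasi-likelihood test (version 4.0.16, TMM scaling, filterByExpr with a minimum count of 10) over all 10207 transcripts passing the filter and over gene sums, and share of the gene with edgeR's diffSpliceDGE over 5464 transcripts, each with Benjamini-Hochberg adjusted p under 0.05. The diffSpliceDGE test compares a transcript's log fold change with that of its gene over the transcripts that passed the filter. It does not test the percentage share itself, which was taken over all transcripts of the gene. Errors beside log2 fold changes are standard errors and those beside shares are SD over 4 libraries. Ratios of summed counts have exact binomial 95% intervals that cover counting error only, and PCR copies are not independent molecules. Alternatives used DESeq2 1.42.0, limma 3.58.1, other scaling and filters, a replicate block and leaving out each library. The scripts were tested on simulated data. R 4.3.3, Python 3.11.15, pandas 2.3.3, numpy 2.4.6, scipy 1.17.1 and matplotlib 3.10.9 were used.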

Additional observations from a re-analysis of the deposited data

Results flagged for a closer look

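Within each group of 4 libraries, 78 sets of values were tested for a library far from the others by Dixon's criterion at its 95% level, which chance meets in about 1 in 20 groups, and 8 met it, of which 7 are given. In the shSCR group, replicate 2 had a normalized CPM of 17.7 for SDAD1-202 against 10.4 to 11.4 in the others, and a share of 48.4% for MTRR-219 against 55.1% to 55.3%. SKP2-211 had 1 count in shSCR replicate 2, giving 0.632 CPM and 0.862% of the gene, and was at 0 in the other shSCR libraries. RPL30-206 had 34.3 CPM in shPTBP1 replicate 3 against 25.6 to 26.7, and its share in shSCR replicate 3 was 0.205% against 0.128% to 0.141%. RBM39-216 had 90.0 CPM in shPTBP1 replicate 3 against 105 to 108.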

How the results depend on the processing

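No result changed direction under the alternatives run. The 26 abundance calls became 21 with DESeq2, 27 with limma-voom, 35 with every transcript that had a count and 18 to 30 when 1 library was left out. The 5 share calls became 10 with limma diffSplice, 3 with every transcript that had a count, 8 with a minimum change of 5 points, 2 with 20 points and 3 to 5 when 1 library was left out. The 53 host-gene calls became 18 to 42 when 1 library was left out. The difference in library share ranged from -0.0819 to -0.0449 when 1 library was left out. An alternative chosen after seeing the data left out the 19 transcripts at 0 in a library and at least 20 counts in another. With it there were 26 abundance calls and 5 share calls. SKP2-211, near 0 in all shSCR libraries, is not among the 19. Same-numbered libraries did not deviate together (correlations of -0.0276 to 0.0366), so the numbers are not taken as pairs. With the replicate number as a block there were 20 abundance calls, 5 share calls and 36 host-gene calls, and the HSD17B4-229 share call was lost (diffSpliceDGE adjusted p = 0.0816). The abundance calls lost with the block include CHD1L-210 (edgeR adjusted p = 0.0855), CCDC25-206 (0.0909), CACNA2D4-206 (0.0741), PDIA3-214 (0.0571) and RBM39-206 (0.0605).

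Depth limited the tests, since 302 of the 775 transcripts were below the filter, and a count of 0 in a library allows up to 3 counts. Assignment of reads between near-identical isoforms or pseudogene copies was not tested.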
